A study of Mus musculus with 79 samples.

Results

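The genes described here were 10 members of the interleukin-1 (IL-1) family and of the inflammasome, taken by symbol from the raw count files, which hold 23361 genes. They are the ligands Il1a, Il1b, Il18 and Il33, the receptor antagonist Il1rn, the receptors Il1r1, Il1r2 and Il1rap, and the inflammasome genes Casp1 and Nlrp3. All 10 were found. The mice carried green fluorescent protein (GFP) under the human S100B promoter, a transgene that marks Schwann cells, and both sexes were used. In each mouse the common peroneal nerve was sutured across to the distal stump of the tibial nerve inside a silicone conduit. In the delayed repair group the tibial stump had been left without axons for 8 weeks before suture, and in the immediate repair group the nerve was cut and sutured at once, after a sham incision 8 weeks earlier. Tissue was taken 5 or 14 days after repair, from different animals at each day, and the age of the mice is not given in the sources used here.

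Macrophages (positive for F4/80, CD14, CD16/32 and CD11b) and Schwann cells (GFP high and negative for these 4 macrophage markers) were sorted from the tissue bridge, 1000 cells to a library and 1 library of each kind per animal, with no pooling of animals. Both sorts also left out cells stained for Ly6G (neutrophils), Siglec F (eosinophils), CD3e (T cells), Thy1.2 (fibroblasts), CD31 (endothelial cells) or Ter119 (red blood cells), and no antibody of the panel was listed as specific to dendritic cells. Macrophage libraries numbered 9 after delayed and 8 after immediate repair at day 5, and 7 and 8 at day 14. Schwann cell libraries numbered 9 and 7 at day 5, and 7 and 8 at day 14. The distal stump, a whole tissue, was sequenced at day 5 only, from 9 delayed and 7 immediate repair animals. In all there were 79 libraries from 32 animals. Library totals ran from 14928748 to 28499405 counts in macrophages, from 11614940 to 30796825 in the Schwann cell fraction and from 3898778 to 9212710 in the stump. The sorted cells were sequenced from amplified cDNA and the stump from RNA depleted of ribosomal RNA, so levels in the stump were not tested against the others.

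IL-1 alpha and IL-1 beta act through the same receptor, formed by IL1R1 with its accessory chain, the product of Il1rap. The product of Il1rn occupies IL1R1 without signalling, and IL1R2 is a decoy that binds the ligand without passing a signal on. NLRP3 assembles an inflammasome that activates caspase-1, the product of Casp1, which cuts the precursors of IL-1 beta and IL-18 into their active forms, while IL-1 alpha and IL-33 are stored in cells and act as alarm signals when cells are damaged. In injured nerve, IL-1 is among the early cytokines made by Schwann cells and by incoming macrophages. RNA counts report neither cleavage nor release of these proteins.

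The markers of the sorted fractions were checked first, because they bear on every level given for the Schwann cell fraction. The summed level of 12 Schwann cell markers there was between 164 and 3763 CPM (counts scaled to 1000000 per library) over libraries, and S100b averaged 6.77 CPM (SD 7.76, n = 16) at day 5 and 12.7 CPM (SD 13.2, n = 15) at day 14. The summed level of 12 dendritic cell markers was 21890 to 47653 CPM in the same libraries, with all of these genes detected, against 1241 to 18198 CPM in macrophages. Ccr7, the receptor that guides dendritic cells to lymph nodes, averaged 7591 CPM (SD 1468) in the fraction at day 5, and Flt3, the receptor for the growth factor of dendritic cells, averaged 656 CPM (SD 195). The markers therefore go against the label, and the libraries are called the GFP high sorted fraction below. Macrophage markers were also present in it, at 279 to 12539 CPM summed over 11 genes, against 19541 to 40799 CPM in the macrophage libraries. Fibroblast markers summed to between 16.5 and 20030 CPM over 10 genes in the fraction. Neutrophil markers summed to 20553 and 5682 CPM in replicates 3 and 5 of the immediate group at day 14 and to at most 208 CPM in every other library of the fraction. The gate was set to leave out neutrophils, macrophages and fibroblasts. How much of any member's level in this fraction came from each cell type was not tested. In macrophage libraries Schwann cell markers summed to at most 40.6 CPM.

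Macrophages carried the antagonist and both IL-1 ligands at high levels. To compare genes, CPM was divided by the length of the principal transcript in kb, which gives a level per length. Per length, Il1rn was first at day 5 with a mean of 1602 CPM per kb (SD 664, n = 17), followed by Il1b at 814 (SD 257) and Il1a at 519 (SD 281). Casp1 was at 58.9 CPM per kb (SD 9.27), Nlrp3 at 31.3 (SD 8.75) and Il18 at 21.5 (SD 6.19). Il1rn was above Il1b in 17 of 17 libraries, Il1b above Il1a in 16 of 17 and Il1a above Casp1 in 17 of 17. The order of these 6 genes by mean was the same at day 14 and when the length of all exons was used. The other members, Il1rap, Il1r2, Il1r1 and Il33, lay between 3.18 and 7.30 CPM per kb, and no neighbour among them was above the next in all 17 libraries.

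The gene starts of the most abundant members and of Nlrp3 follow, because these genes are the ones whose macrophage levels the following comparisons turn on. Il1a lies on chromosome 2 of GRCm38 at 129299610 to 129309972 and Il1b at 129364570 to 129371139, both on the minus strand. Il1rn lies on the same chromosome at 24336853 to 24351494, and Nlrp3 on chromosome 11 at 59541568 to 59566956, both on the plus strand. Each line gives the 250 bases before a RefSeq start site (GRCm38.p6) in the direction of the gene, at chr2:129309973-129310222 (minus strand) for Il1a, chr2:129371140-129371389 (minus strand) for Il1b, chr2:24336610-24336859 (plus strand) for Il1rn and chr11:59541319-59541568 (plus strand) for Nlrp3. Capitals mark letters that match a searched motif.
Il1a: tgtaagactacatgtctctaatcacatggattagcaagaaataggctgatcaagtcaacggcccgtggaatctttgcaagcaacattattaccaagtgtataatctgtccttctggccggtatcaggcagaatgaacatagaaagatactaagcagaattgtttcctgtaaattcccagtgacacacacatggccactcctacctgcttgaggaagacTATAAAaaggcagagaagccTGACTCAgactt
Il1b: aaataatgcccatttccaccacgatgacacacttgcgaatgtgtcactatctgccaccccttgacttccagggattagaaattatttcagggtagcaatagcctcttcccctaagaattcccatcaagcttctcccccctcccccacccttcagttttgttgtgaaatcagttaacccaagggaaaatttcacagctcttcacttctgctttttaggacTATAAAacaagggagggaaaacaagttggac
Il1rn: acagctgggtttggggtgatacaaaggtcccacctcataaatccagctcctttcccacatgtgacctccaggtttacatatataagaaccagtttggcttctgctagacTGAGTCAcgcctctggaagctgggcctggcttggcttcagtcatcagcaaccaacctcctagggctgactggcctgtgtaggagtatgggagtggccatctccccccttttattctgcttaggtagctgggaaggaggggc
Nlrp3: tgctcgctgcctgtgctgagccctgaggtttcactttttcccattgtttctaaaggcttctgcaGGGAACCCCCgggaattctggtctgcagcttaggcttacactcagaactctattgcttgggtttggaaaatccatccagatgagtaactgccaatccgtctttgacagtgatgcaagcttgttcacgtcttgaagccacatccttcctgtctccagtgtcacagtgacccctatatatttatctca

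In Il1a the capitals are a TATA motif (TATAAA) at -32 and an AP-1 motif (TGACTCA or TGAGTCA) at -12 from the start site. In Il1b they are a TATA motif at -31, in Il1rn an AP-1 motif at -141, and in Nlrp3 an NF-kB motif on the opposite strand at -186. Both strands were searched in the 15 promoters that the table holds for the 10 members. AP-1 letters were in 2 of the 15 and in 4.46% of all 32851 promoters of this length, TATA letters in 5 and in 12.4%, NF-kB letters in 2 and in 3.90%, and C/EBP letters (TTGCNNAA) in 2 and in 9.56%. CRE letters (TGACGTCA) and PU.1 letters (GAGGAAGT) were in 0 of the 15, against 1.55% and 2.44% of all. These matches describe the sequence and do not mark a site in use.

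The first question was whether delayed repair changed the IL-1 genes in macrophages at day 5. Il1a was between 246 and 1813 CPM after delayed repair with a median of 615, and between 492 and 2031 CPM with a median of 1140 after immediate repair. Il1b was between 435 and 1470 CPM with a median of 1064 after delayed repair, and between 902 and 1659 CPM with a median of 1214 after immediate repair. For both ligands 3 of 9 delayed libraries lay below every immediate library and 8 of 9 lay below the immediate mean, but the groups overlapped. The log2 fold change, delayed over immediate, was -0.83 (SE 0.36) for Il1a and -0.49 (SE 0.23) for Il1b. Neither passed: the adjusted p of edgeR was 0.915 for Il1a, whose unadjusted p was 0.0332, and 0.931 for Il1b, whose unadjusted p was 0.0481.

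Nlrp3 was 60.4 to 168 CPM with a median of 107 after delayed repair and 96.8 to 192 CPM with a median of 137 after immediate repair, overlapping groups with a log2 fold change of -0.39 (SE 0.19). Il33 had the largest fitted value, -1.76, but with an SE of 0.93 at levels of 0 to 52.4 CPM. The antagonist Il1rn was at -0.37 (SE 0.30), Il1r1 at -0.33 (SE 0.24) and Il18 at -0.02 (SE 0.18). Il1r2 was at 0.46 (SE 0.38), Casp1 at 0.16 (SE 0.11) and Il1rap at 0.13 (SE 0.20). In edgeR 0 of the 10 members passed, beside 0.0357% of 8409 genes tested, and DESeq2 called 0 of the 10, beside 17 of 8409 genes. At an unadjusted p under 0.05 Il1a and Il1b stood out, beside 5.17% of all genes.

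Genes that IL-1 is known to induce lay on the same side at day 5. All 19 tested genes of that list had a fitted value below 0, with a median of -0.55, against a median of 0.01 over all genes tested, of which 47.1% were below 0. Of the 19, 0 passed. Those with the smallest p were Lif at -1.22 (SE 0.35), Vcam1 at -0.85 (SE 0.25), Il6 at -1.11 (SE 0.35) and Nfkbia, the inhibitor of NF-kB, at -0.29 (SE 0.10). These genes also respond to other signals, and the list was chosen with earlier results of these data known. The other inflammasome genes had a median of 0.06 over 17 genes and the genes of IL-1 receptor signalling a median of -0.04 over 18, with 0 passing in either.

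At day 14 the fitted values of Il1a, Il1b and Nlrp3 were above 0. Il1b was between 522 and 1278 CPM with a median of 712 after delayed repair, and between 363 and 864 CPM with a median of 569 after immediate repair. Delayed libraries were above the immediate mean in 6 of 7 cases, and the groups overlapped. The log2 fold change was 0.44 (SE 0.18) for Il1b, 0.34 (SE 0.16) for Nlrp3 and 0.34 (SE 0.28) for Il1a, none of which passed in edgeR. Il1r2, at 0.511 to 6.22 CPM, was under the level required for a test. Of the 9 members tested 0 passed, beside 0% of 8589 genes, and DESeq2 also called 0. Il1b and Nlrp3 were under an unadjusted p of 0.05, beside 2.21% of all genes.

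The change in the effect of delay between the days was tested directly. Subtracting the day 5 fold change from that of day 14, on the log2 scale, gave 0.93 (SE 0.32) for Il1b, 0.74 (SE 0.26) for Nlrp3 and 1.17 (SE 0.50) for Il1a, with unadjusted edgeR p-values of 0.00622, 0.00817 and 0.0241. None of the 10 passed adjustment over all genes, beside 0.0223% of 8949 genes that did and 3.61% under an unadjusted p of 0.05. DESeq2 called 0 of the 10 as well, beside 9 of 8949 genes. By p-value Il1b was number 47, Nlrp3 number 67 and Il1a number 161 of the genes tested. The unadjusted 95% interval ran from 0.28 to 1.57 for Il1b, from 0.21 to 1.28 for Nlrp3 and from 0.16 to 2.18 for Il1a.

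**Figure D1:**
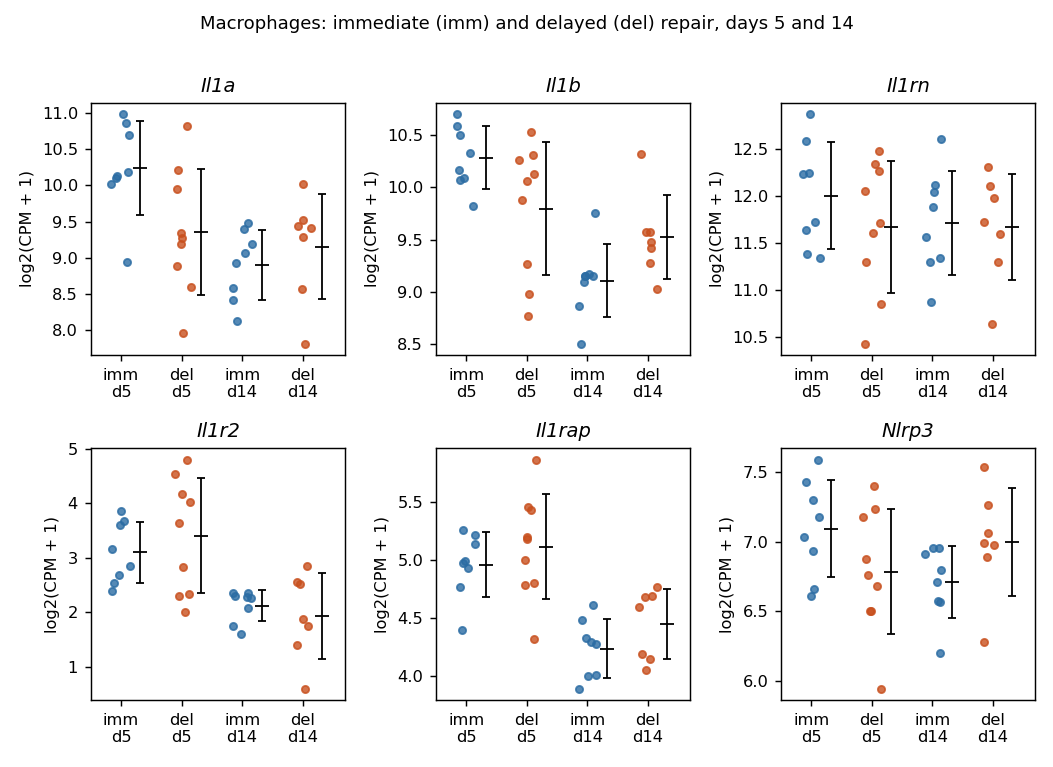
Levels in macrophage libraries as log2(CPM + 1), each point 1 animal, blue for immediate (imm) and orange for delayed (del) repair at days 5 (d5) and 14 (d14), with the mean and SD of each group as black bars. After immediate repair the day 14 libraries of Il1b all lie below those of day 5, and after delayed repair the days overlap.

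The second question was how macrophages differed between day 5 and day 14, separately in each repair group. After immediate repair 5 of the 10 members were lower at day 14 and 0 higher, beside 11.8% of 8949 genes called in either direction. Il1b fell from a range of 902 to 1659 CPM at day 5 to 363 to 864 CPM at day 14, groups that did not overlap, with a log2 fold change of -1.34 (SE 0.23, edgeR adjusted p = 1.41e-04). Il1a fell from 492 to 2031 CPM to 278 to 712 CPM, with 4 of 8 day 14 libraries below the lowest of day 5 and a log2 fold change of -1.59 (SE 0.36, edgeR adjusted p = 0.00287). The decoy receptor Il1r2 was low in macrophages, at 4.26 to 13.5 CPM at day 5 and 2.04 to 4.11 CPM at day 14, again with no overlap. Its log2 fold change was -1.40 (SE 0.39, edgeR adjusted p = 0.0170). In macrophages Il1r2 reached 5 CPM in 12 of 17 libraries at day 5 and 1 of 15 at day 14, so that it entered the test through day 5, where it was high, and its place in the counts of lower members after immediate and after delayed repair is no independent support. Without a filter on low counts its edgeR adjusted p was 0.0229 after immediate and 0.00302 after delayed repair.

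The accessory chain gene Il1rap was at 20.1 to 37.2 CPM at day 5 and 13.8 to 23.4 CPM at day 14, with 6 of 8 later libraries below the lowest early one. Its log2 fold change was -0.93 (SE 0.18, edgeR adjusted p = 8.07e-04). Nlrp3 fell by 0.60 on the log2 scale (SE 0.19, edgeR adjusted p = 0.0318), and its groups overlapped. With scaling by library size alone, which moves the median over all genes by 0.17 in this comparison, Nlrp3 was at -0.41 with an adjusted p of 0.104. Il1rn was at -0.48 (SE 0.31), Il18 at -0.52 (SE 0.24), Il1r1 at -0.56 (SE 0.26) and Il33 at -0.23 (SE 0.79), and Casp1 was at 0.16 (SE 0.13). None of these 5 passed.

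After delayed repair 2 of the 10 members were lower at day 14 and 0 higher, beside 9% of 8949 genes called. Il1r2 was at 3.01 to 26.9 CPM at day 5 and 0.511 to 6.22 CPM at day 14, with a log2 fold change of -1.91 (SE 0.41, edgeR adjusted p = 0.00243). Il1rap was at 19.0 to 57.2 CPM and then 15.6 to 26.2 CPM, with a log2 fold change of -0.81 (SE 0.19, edgeR adjusted p = 0.00470). The groups of both genes overlapped. Il1b was at -0.42 (SE 0.23), Il1a at -0.41 (SE 0.35) and Nlrp3 at 0.14 (SE 0.19), none of which passed. That these 3 passed after immediate and not after delayed repair is not by itself a difference, and the test of the difference is the one given above, which did not pass.

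Among other genes of the pathway, 12 of 19 tested genes that IL-1 induces were lower at day 14 after immediate repair and 0 higher, with a list median of -1.58. After delayed repair 10 of the 19 were lower and 1 higher, with a median of -1.14. The median over all genes was 0.01 and 0.00 in these comparisons. After immediate repair Lif, a cytokine of the IL-6 family, was at -3.04 (SE 0.40), and the monocyte chemokines Ccl2 and Ccl7 were at -1.67 (SE 0.22) and -1.58 (SE 0.21). After delayed repair the protease gene Mmp9 was at -3.54 (SE 0.45) and the neutrophil chemokine Cxcl5 at -3.05 (SE 0.58). Irak3, an inhibitor of IL-1 receptor signalling, was lower in both, at -0.76 (SE 0.23) and -0.78 (SE 0.24), and was 1 of 2 signalling genes of 19 that fell in each. Of 17 other inflammasome genes, 1 fell after immediate repair (Ninj1, at -0.37, SE 0.10) and 1 rose after delayed repair (P2rx7, the ATP receptor that triggers NLRP3, at 0.67, SE 0.21). Beside the 11.8% (immediate) and 9% (delayed) of all genes called, the counts of signalling and inflammasome genes are near or under the background and say nothing particular of these lists. Dendritic cell markers summed to medians of 2727 and 3004 CPM in macrophage libraries at day 5 after immediate and delayed repair, and to 10565 and 9115 CPM at day 14. Neutrophil markers summed to 183 and 203 CPM at day 5 and 138 and 135 CPM at day 14, with 2 of 5 tested genes lower in each repair group. Of 15 genes of the response to tissue dissociation, 5 were lower at day 14 after immediate and 3 after delayed repair. The part of these in the differences between days was not tested.

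Per length of the principal transcript, the antagonist exceeded Il1b in every macrophage library. Over all exons Il1rn has 5535 and Il1b 1907 bases, against 2474 and 1356 in the principal transcripts. The ratio is therefore lower per length of all exons, by which single libraries were not compared. The ratio of Il1rn to Il1b per length had a median of 2.06 after immediate and 2.13 after delayed repair at day 5, and 3.72 and 3.22 at day 14, with a lowest value of 1.08 in any library. The ratio of Il1b to Il1a had medians of 1.34 to 2.33 over the 4 groups.

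In the GFP high sorted fraction Il1b was the leading member. At day 5 its mean was 888 CPM per kb (SD 289, n = 16), ahead of Il1rn at 346 (SD 142) and the decoy receptor Il1r2 at 192 (SD 83.7). At day 14 Il1b was at 1475 CPM per kb (SD 469, n = 15), Il1rn at 224 (SD 65.1) and Il1r2 at 120 (SD 54.7). Il1b was above Il1rn in every library of both days. The signalling receptor Il1r1 was last of the 10 on both days, at 1.56 (SD 1.57) and 1.77 (SD 1.70) CPM per kb. The ratio of Il1rn to Il1b per length had medians between 0.16 and 0.42 over the 4 groups, the reverse of the order in macrophages.

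The low members were scattered in this fraction. Il1a ran from 0 to 164 CPM, Il33 from 0 to 442 CPM and Nlrp3 from 0 to 60.9 CPM over its 31 libraries. Libraries with 0 counts numbered 3 for Il33, 2 for each of Il1a, Il18 and Il1r1 and 1 for Nlrp3, where a count of 0 allows up to 0.258 CPM in the smallest library.

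**Figure D2:**
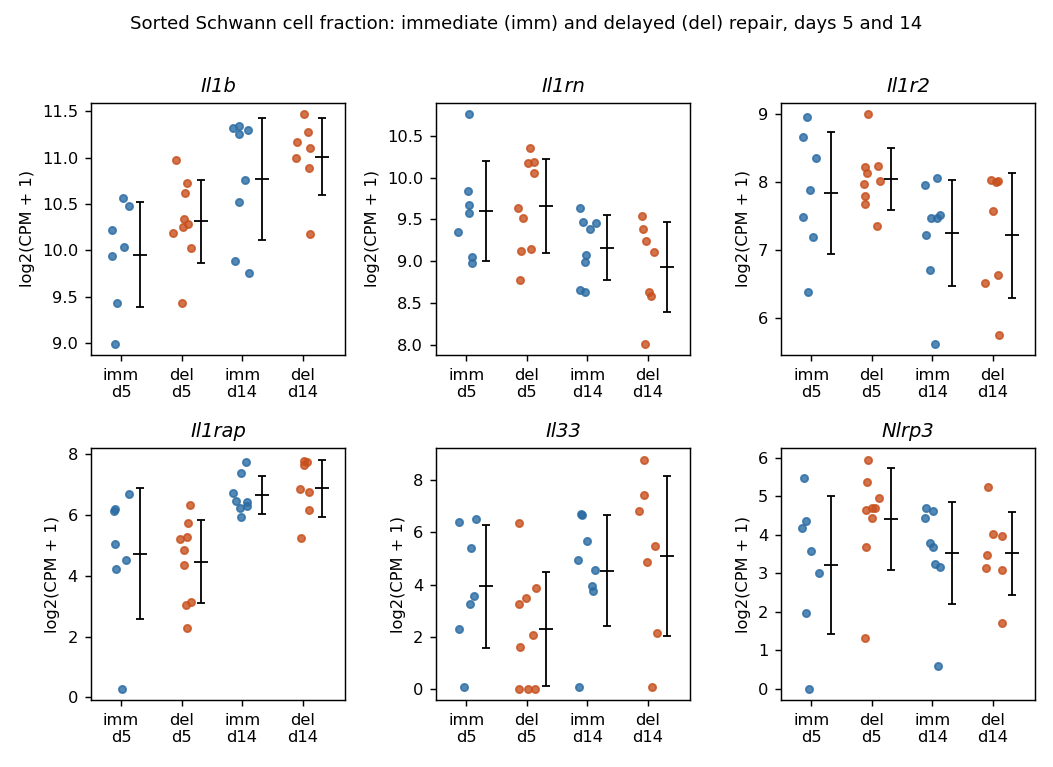
Levels in the GFP high sorted fraction as log2(CPM + 1), each point 1 animal, blue for immediate (imm) and orange for delayed (del) repair at days 5 (d5) and 14 (d14), with the mean and SD as black bars. Il1b, Il1rn and Il1r2 lie well above 0 in every library, while Il33, Il1rap and Nlrp3 run down to 0 or near it in single libraries.

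Delayed and immediate repair were then compared in this fraction. At day 5 Il1b was between 687 and 2009 CPM with a median of 1244 after delayed repair, and between 508 and 1514 CPM with a median of 1052 after immediate repair. At day 14 it was between 1152 and 2830 CPM with a median of 2200 after delayed repair, and between 863 and 2588 CPM with a median of 2088 after immediate repair. The groups overlapped on both days, with log2 fold changes of 0.32 (SE 0.21) and 0.17 (SE 0.25). Il1r2 was at 0.04 (SE 0.29) at day 5 and 0.05 (SE 0.38) at day 14, and Il1rn at 0.01 (SE 0.31) and -0.24 (SE 0.25).

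In edgeR 0 of 10 members passed at day 5, beside 0% of 9604 genes, and 0 of 10 at day 14, beside 0% of 10226 genes. DESeq2 called 0 members on either day, beside 14 of 9604 and 3 of 10226 genes. Under an unadjusted edgeR p of 0.05 there were 0 members, beside 5.26% and 3.65% of all genes. For the scattered members the intervals were wide. The 95% interval of the log2 fold change of Nlrp3 at day 5 ran from -0.76 to 2.60, that of Il33 at day 14 from -0.84 to 3.63, and that of Il1a at day 14 from -2.43 to 2.88. A difference of delay effects between the days passed for 0 of the 10 members in edgeR and in DESeq2, beside 0% of 10923 genes in edgeR and 9 of 10923 in DESeq2. Of all genes 4.80% were under an unadjusted edgeR p of 0.05, where 0 members fell.

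Between the days in this fraction, 2 of 10 members passed after delayed repair, beside 6.73% of 10923 genes. Il1rap was higher at day 14, at 37.1 to 217 CPM with a median of 116 against 3.83 to 78.9 CPM with a median of 27.8 at day 5, a log2 fold change of 2.01 (SE 0.57, edgeR adjusted p = 0.0302). Il1rn was lower, at 257 to 745 CPM with a median of 551 against 439 to 1306 CPM with a median of 792, a log2 fold change of -0.98 (SE 0.30, edgeR adjusted p = 0.0461). Both overlapped. The call of Il1rn is near the threshold, with an adjusted p of 0.0530 without the 2 libraries high in neutrophil markers, of 0.0573 and 0.0593 with other filters on low counts and of 0.0695 with library size scaling. After immediate repair 0 of 10 passed, beside 7.28% of 10923 genes. DESeq2 called 1 of the 9 members with an adjusted p there, beside 1189 of 8593 genes. In edgeR 3 members were under an unadjusted p of 0.05 after immediate repair, beside 21.2% of all genes. They were Il1b at 0.63 (SE 0.24), Il1r2 at -0.86 (SE 0.35) and Il1rn at -0.73 (SE 0.30). After delayed repair, besides Il1rap and Il1rn, Il1b at 0.49 (SE 0.23), Il1r2 at -0.84 (SE 0.35) and Il33 at 2.91 (SE 1.26) were under it, beside 22.3% of all genes. The pore-forming gasdermin gene Gsdmd, the 1 of 19 other inflammasome genes called in each group, was lower at day 14 in both, at -1.21 (SE 0.25) and -0.96 (SE 0.25). Of 21 genes that IL-1 induces, 1 was higher and 2 lower after delayed repair, and 2 were higher and 3 lower after immediate repair. Nfkbiz was lower in both, at -0.71 (SE 0.20) and -1.07 (SE 0.21), and the adhesion molecule gene Vcam1 was higher after delayed repair, at 1.75 (SE 0.41). Schwann cell marker sums moved with day in this fraction, from medians of 241 (delayed) and 823 CPM (immediate) at day 5 to 2225 and 935 CPM at day 14, and fibroblast marker sums from 606 and 1607 CPM to 5080 and 7126 CPM. Macrophage marker sums had medians of 3432 (delayed) and 1078 CPM (immediate) at day 5 and 1913 and 1897 CPM at day 14, with 11 of 11 genes fitted lower at day 14 after delayed and 5 of 11 after immediate repair, of which 0 passed. Of 15 dissociation response genes, 7 were lower at day 14 after delayed and 5 after immediate repair, and 2 and 4 of 12 dendritic cell markers were lower, with 0 and 1 higher. The part of these in the values of Il1rap and Il1rn was not tested.

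The sorted fractions of the same animals were compared next, with 16 animals at day 5 and 15 at day 14 and the animal as a block. Differences between the fractions were common, with 64.5% of 10074 genes called at day 5 and 63.3% of 10596 at day 14. Of the 10 members 6 were lower in the GFP high fraction and 1 higher at day 5, and 6 lower and 3 higher at day 14. With most of all genes called, the number of members called says little, and their sizes and directions are given instead.

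Il1a was at 0.316 to 164 CPM in the GFP high fraction at day 5 against 246 to 2031 CPM in macrophages, lower in 16 of 16 animals with no overlap. Its log2 fold change, GFP high fraction over macrophages, was -5.10 (SE 0.70, edgeR adjusted p = 4.00e-06) at day 5 and -6.82 (SE 0.89, edgeR adjusted p = 2.32e-06) at day 14. Il1b did not follow Il1a. It was at -0.09 (SE 0.20, edgeR adjusted p = 0.703) at day 5, or at 0.15 with library size scaling, higher in 8 animals and lower in 8. At day 14 it was higher in 14 of 15 animals, at 1.22 (SE 0.17, edgeR adjusted p = 7.13e-06).

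Il1r2 was the member with the largest difference in favour of the GFP high fraction. At day 5 it was at 82.1 to 511 CPM there and 3.01 to 26.9 CPM in macrophages, and at day 14 at 48.3 to 267 CPM and 0.511 to 6.22 CPM. The ranges did not overlap on either day, and the gene was higher in all 16 and all 15 animals, with log2 fold changes of 4.67 (SE 0.25, edgeR adjusted p = 3.08e-11) and 5.28 (SE 0.25, edgeR adjusted p = 5.49e-12). At day 14 Il1r2 reached 5 CPM in 15 of 15 libraries of the GFP high fraction and 1 of 15 of macrophages, so that it entered that test through the fraction where it was high and had to differ, and the day 14 value is a description. Il1rap was at -0.63 (SE 0.48) at day 5 and higher in 15 of 15 animals at day 14, at 2.14 (SE 0.22). Il1r1 went the other way, at -2.76 (SE 0.57) and -2.29 (SE 0.60).

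Il1rn was lower in the GFP high fraction in all animals of both days, at -2.44 (SE 0.20) and -3.00 (SE 0.15), and Nlrp3 likewise at -3.27 (SE 0.55) and -3.77 (SE 0.35). Casp1 was at -1.74 (SE 0.19) and -1.45 (SE 0.10), and Il18 at -2.77 (SE 0.56) and -1.75 (SE 0.37), all with an edgeR adjusted p under the threshold of 0.05. Il33 was at 0.96 (SE 1.33) and 1.34 (SE 0.92) and did not pass. In the 2 libraries with high neutrophil markers Il1b was at 1471 and 943 CPM and Il1r2 at 177 and 103 CPM, within the range of the other libraries of that day. Without these animals 9 of the 10 members were again called at day 14, beside 6407 of 10492 genes.

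**Figure D3:**
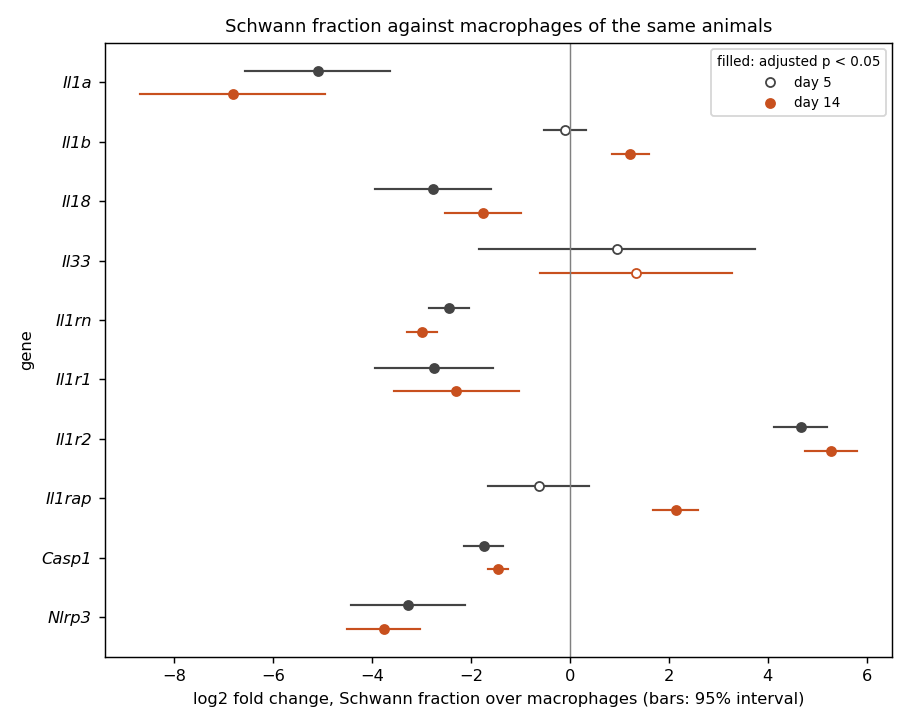
Log2 fold change of each member in the GFP high sorted fraction over macrophages of the same animals at day 5 (black) and day 14 (orange), with the 95% interval as a line and filled points for an edgeR adjusted p under 0.05. Il1r2 lies far to the right and Il1a far to the left on both days, and Il1b moves from about 0 at day 5 to the right at day 14.

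Other genes of the pathway are given beside the 64.5% and 63.3% of all genes called between the fractions at days 5 and 14, against which the counts say little. Genes that IL-1 induces were lower in the GFP high fraction in 16 of 19 and higher in 2 at day 5, with Cxcl2 and Ccl2, chemokines for neutrophils and monocytes, at -3.85 (SE 0.43) and -3.35 (SE 0.38). At day 14, 12 of 20 were lower and 5 higher. Of the other inflammasome genes 12 of 17 were lower and 3 higher at day 5, and 12 of 19 lower and 2 higher at day 14. Among them the adaptor gene Pycard was at -1.22 (SE 0.15) at day 5, and Casp4, the caspase that senses bacterial lipopolysaccharide in the cytosol, was at -1.95 (SE 0.19) and -1.58 (SE 0.11). Gsdmd was higher at day 5, at 1.14 (SE 0.13). Sigirr, an inhibitory receptor of the family, was higher on both days, at 4.73 (SE 0.51) and 4.42 (SE 0.43).

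In the distal stump at day 5, 4 of the 9 members tested were higher and 1, Il1rap, was lower after delayed repair, beside 26.3% of 12229 genes called in either direction. Per length the order was Il1b at 80.3 CPM per kb (SD 59.5, n = 16), Il33 at 43.6 (SD 18.7) and Il1r1 at 38.3 (SD 12.2), then Casp1 at 18.7 (SD 5.73), Il18, Il1r2, Il1rap and Il1rn at 10.6 to 14.7, Nlrp3 at 7.41 (SD 3.14) and Il1a at 1.02 (SD 0.48). By the length of all exons Nlrp3 ranked 7, ahead of Il1rap at 8 and Il1rn at 9. Il1b and Il33 did not separate, with Il1b the higher in 9 of 16 libraries, whereas Il1r1 was above Casp1 in 16 of 16. Il1a, at 0.508 to 2.72 CPM after delayed and 1.50 to 3.94 CPM after immediate repair, was under the level required for a test. In this whole tissue, fewer cells of a type and less RNA per cell cannot be told apart.

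The receptor gene Il1r1 was at 191 to 368 CPM after delayed and 119 to 212 CPM after immediate repair, with 8 of 9 delayed libraries above every immediate library. Its log2 fold change was 0.80 (SE 0.13, edgeR adjusted p = 3.64e-04). Il18 was at 8.41 to 20.7 CPM with a median of 15.6 after delayed repair and at 4.51 to 16.4 CPM with a median of 5.92 after immediate repair. Among the immediate libraries 5 lay below the lowest delayed library and 2 reached 14.4 and 16.4 CPM, and the log2 fold change was 0.92 (SE 0.29, edgeR adjusted p = 0.0238). Il18 reached 5 CPM in 9 of 9 delayed and 4 of 7 immediate libraries, so it met the filter mainly through the group where it was high. Without a filter on low counts its edgeR adjusted p was 0.0456.

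Casp1 was at 23.4 to 46.3 CPM after delayed and 13.0 to 31.8 CPM after immediate repair, at 0.58 (SE 0.18, edgeR adjusted p = 0.0208). Nlrp3 was at 27.6 to 58.0 CPM with a median of 28.8 after delayed and 11.1 to 32.6 CPM with a median of 20.1 after immediate repair, at 0.71 (SE 0.24, edgeR adjusted p = 0.0331). For Il18, Casp1, Nlrp3 and Il1r1 all 9 delayed libraries lay above the immediate mean, although every pair of groups overlapped. Il1rap went the other way, at 27.1 to 77.4 CPM with a median of 40.3 after delayed and 50.8 to 116 CPM with a median of 62.8 after immediate repair. Of the 9 delayed libraries 7 were below every immediate library, and the log2 fold change was -0.66 (SE 0.19, edgeR adjusted p = 0.0195).

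The other 4 members did not pass. Il1b was at 20.7 to 333 CPM after delayed and 19.9 to 208 CPM after immediate repair, at 0.60 (SE 0.49), and its 95% interval of -0.43 to 1.62 leaves room for a difference of either sign. Il1rn was at 0.43 (SE 0.31), Il1r2 at 0.34 (SE 0.44) and Il33 at -0.23 (SE 0.30). The ratio of Il1rn to Il1b per length had a median of 0.17 after delayed and 0.19 after immediate repair, with ranges of 0.07 to 0.26 and 0.09 to 0.26 that overlapped.

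These calls rested in part on single libraries. Without replicate 2 of the immediate group 1 of the 5 calls remained (Il1r1), beside 2363 of 12176 genes. The edgeR adjusted p-values were then 0.0603 for Il18, 0.0566 for Il1rap, 0.0586 for Casp1 and 0.0790 for Nlrp3. Without replicate 6 of the immediate group 2 remained, beside 2463 of 12172 genes, with edgeR adjusted p-values of 0.0583 for Il18, 0.0517 for Casp1 and 0.0819 for Nlrp3. Nlrp3 alone was lost without replicate 4 or 6 of the delayed group or replicate 3 or 7 of the immediate group, at edgeR adjusted p-values of 0.0622 to 0.0721. With each library left out in turn, the log2 fold change ran from 0.80 to 1.16 for Il18 and from 0.48 to 0.68 for Casp1. It ran from 0.58 to 0.82 for Nlrp3 and from -0.81 to -0.49 for Il1rap.

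**Figure D4:**
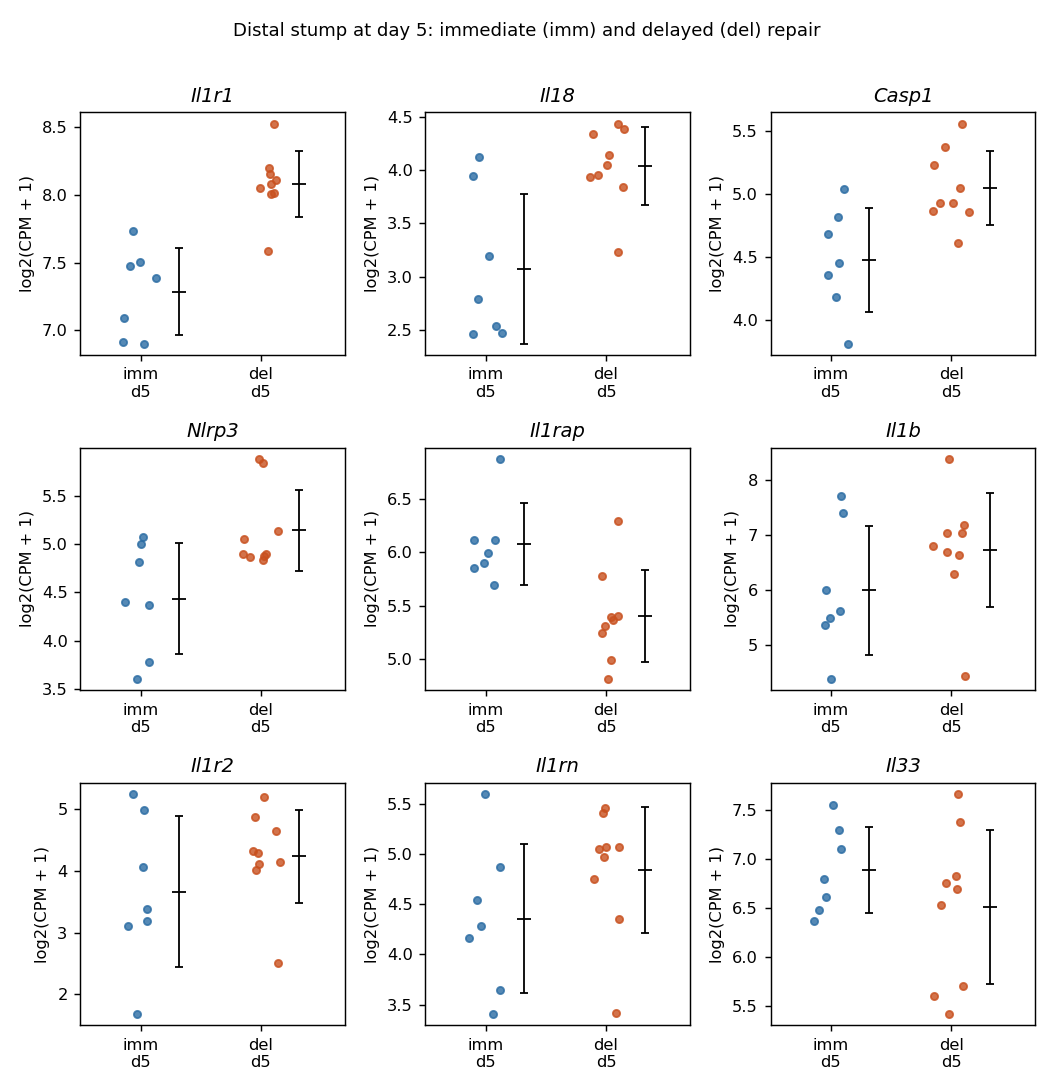
Levels in the distal stump at day 5 as log2(CPM + 1), each point 1 animal, blue for immediate (imm) and orange for delayed (del) repair, with the mean and SD as black bars. Il1r1, Il18, Casp1 and Nlrp3 lie higher and Il1rap lower after delayed repair, and Il1b, Il1r2 and Il1rn follow wide, overlapping ranges.

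Marker sums of several cell types differed between the stump groups beside these values. Schwann cell markers summed to 203 to 1015 CPM over 12 genes after delayed and 1540 to 3534 CPM after immediate repair. Macrophage markers summed to 3945 to 6551 CPM over 11 genes after delayed and 1781 to 6291 CPM after immediate repair, and endothelial markers to 1434 to 2095 CPM and 895 to 1250 CPM over 10 genes. Fibroblast markers summed to 18360 to 62493 CPM over 10 genes after delayed and 17831 to 47168 CPM after immediate repair. Neutrophil markers were at 85.9 to 380.0 CPM and 83.2 to 377 CPM over 11 genes. The groups overlapped in the sums of every list given here except the Schwann cell and endothelial markers. Dendritic cell markers summed to 796 to 1441 CPM after delayed and 506 to 1165 CPM after immediate repair, with 4 of 9 tested genes higher, and T and NK cell markers to medians of 45.1 and 11.1 CPM, with 1 of 4 higher. Of 7 mast cell and basophil genes tested 4 were lower and 1 higher, with a median of -1.59. Dissociation response genes summed to medians of 1184 CPM after delayed and 1741 CPM after immediate repair, with 3 of 14 lower. The part of any of these lists in the differences of the members was not tested.

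In the stump, counts of called pathway genes stand beside the 26.3% called in either direction over all genes. Of the other IL-1 family ligands and receptors 4 of 7 tested were higher after delayed repair and 0 lower, namely Sigirr at 0.78 (SE 0.14), the IL-18 receptor chains Il18r1 at 1.34 (SE 0.40) and Il18rap at 0.89 (SE 0.30), and the IL-36 gamma gene Il1f9 at 0.54 (SE 0.19). Of the other inflammasome genes 13 of 22 were higher and 0 lower, with a median of 0.54 against 0.02 over all genes. They included the bacterial sensors Naip5 at 0.69 (SE 0.12) and Nlrc4 at 0.91 (SE 0.17), and Nlrp1b at 0.97 (SE 0.19) and Nlrp1a at 0.55 (SE 0.11). Of 21 IL-1 receptor signalling genes 7 were higher and 2 lower, among them Nfkb1 at 0.34 (SE 0.07) and Peli2 at -1.0 (SE 0.19). Genes that IL-1 induces were mixed, with 2 of 19 higher (Icam1 at 0.45, SE 0.13, and Nfkbiz at 0.74, SE 0.23) and 3 lower, among them Lif at -0.94 (SE 0.18) and Ptges, which makes prostaglandin E2, at -0.69 (SE 0.13).

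**Figure D5:**
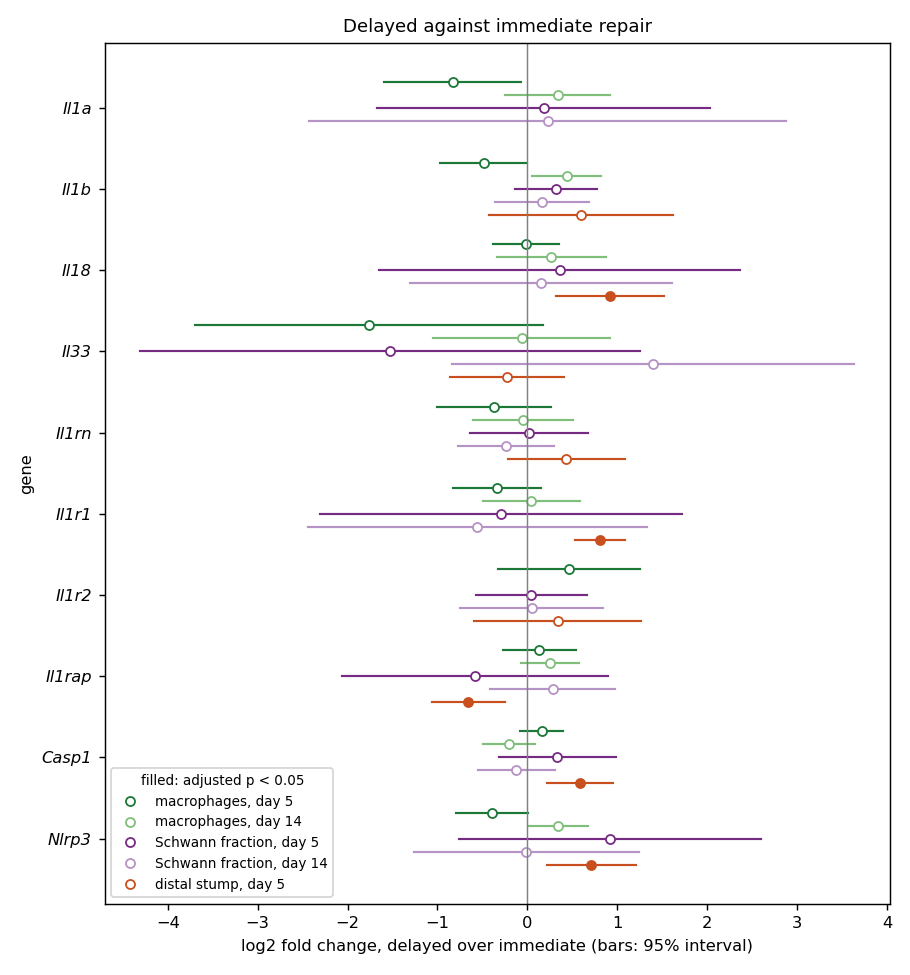
Log2 fold change of each member, delayed over immediate repair, in macrophages, the GFP high sorted fraction and the distal stump, with the 95% interval as a line and filled points for an edgeR adjusted p under 0.05. Filled points appear in the stump for Il18, Il1r1, Il1rap, Casp1 and Nlrp3, and in no comparison of sorted cells.

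Genes whose levels followed the members most closely were listed as a description, from Pearson's r of log2(CPM + 1) after TMM scaling over all libraries of a kind, which share repair group and day effects. Over 32 macrophage libraries the genes most like Il1b included Relb (r = 0.87), Cd14 (r = 0.86) and Stx6 (r = 0.84). Over 31 libraries of the GFP high fraction the genes most like Il1r2 were Skil (r = 0.88), Zbtb18 (r = 0.79), Mta3 (r = 0.79) and Inpp5k (r = 0.79). Over 16 stump libraries Il33 was most like Mospd1 (r = 0.92), Eci2 (r = 0.91), Pvrl3 (r = 0.90) and Decr1 (r = 0.89).

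Reads of some members could not be separated from those of overlapping genes. Il1b overlaps an antisense gene, Il1bos, and Il18 overlaps Bco2 and Tex12 on the opposite strand, while Il1a, Il1r1, Il1r2 and Il1rap each overlap a gene model of unknown function. The libraries of sorted cells do not mark the strand, so reads in the shared stretches cannot be told apart there. Il1r1 and Il1r2 each overlap a gene model on the same strand, which the strand does not separate in the stump either.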

How the data were processed

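RNA was measured in 79 libraries. The authors deposited 1 table of raw expected counts per gene for each kind of sample. The submitters' processing notes name cutadapt 1.8, TopHat2 2.1.1, Cufflinks 2.2.1 and Cuffnorm with the mm10 (GRCm38) build, and the program that wrote the counts is not given in the sources used here. About 1.0% of the deposited expected counts were not whole and all were rounded. The sorted cells were read from amplified cDNA without molecular identifiers, so amplification copies are counted as reads.

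Levels are counts scaled to a library total of 1000000 (CPM). A gene was tested where 6 or more animals of a comparison reached 5 CPM, with edgeR 4.0.16 (R 4.3.3) by its quasi-likelihood test after TMM scaling, with Benjamini-Hochberg adjustment over all genes tested and a threshold of 0.05. The fit was tested on simulated counts. The standard error (SE) is the size of the log2 fold change over the square root of F. Days and their interaction were fitted over the 4 groups of a sorted fraction, which share 1 estimate of spread, and fractions were compared with the animal as a block. DESeq2 1.42.0, limma 3.58.1 (voom), other filters and scalings, sex, the replicate number and the macrophage marker score were alternatives, as was leaving out each library in the delayed against immediate comparisons. The members and lists were chosen with earlier results of these data known. All 10 members are named, with up to 4 genes of smallest p of each pathway list in a comparison and the 4 genes most like Il1b, Il1r2 and Il33, of which 1 is not reported here. The table of RefSeq promoters (GRCm38.p6) held all 10 members. Transcript lengths come from the GRCm38 annotation. The limit that a count of 0 allows is 3 counts of the library total and covers counting error only, whereas intervals of fold changes come from the spread between animals.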

Additional observations from a re-analysis of the deposited data

Results flagged for a closer look

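Of 97 sets of 7 to 9 libraries of a member that were examined, 12 held a library set apart from the rest by Dixon's ratio at its critical value, where chance would give about 5% of sets. In macrophages Il1a was at 492 CPM in replicate 8 of the immediate group at day 5, where the next library was at 1040.0 CPM. Il1b was at 1278 CPM in replicate 8 of the delayed group at day 14, with the next at 762.5 CPM. Il1r1 was at 52.3 CPM in replicate 1 of the delayed group and at 14.4 CPM in replicate 5 of the immediate group at day 5, with the next libraries at 28.9 and 28.4 CPM.

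In the GFP high sorted fraction the lowest library stood apart in each case. Il18 was at 0 CPM in replicate 1 of the delayed group at day 14 (next 4.29 CPM), and Il33 was at 0.058 CPM in replicate 6 of the immediate group at day 14 (next 12.4 CPM). Il1rap was at 0.211 CPM in replicate 3 of the immediate group at day 5 (next 17.8 CPM). Nlrp3 was at 1.51 CPM in replicate 1 of the delayed group at day 5 (next 11.8 CPM) and at 0.504 CPM in replicate 5 of the immediate group at day 14 (next 7.99 CPM), the latter a library with high neutrophil markers.

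In the distal stump Il18 was at 8.41 CPM in replicate 7 of the delayed group (next 13.4 CPM) and Il1r2 at 4.67 CPM in replicate 8 of the same group (next 15.1 CPM). Il1rap was at 116 CPM in replicate 2 of the immediate group (next 68.1 CPM), the library without which 4 of the 5 stump calls no longer passed.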

How the results depend on the processing

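The count of members called moved by over 1.5 times from the reported value, or from 0, under the following alternatives and under the replicate block. After delayed repair the GFP high fraction had 1 call by day instead of 2 with library size scaling, without a filter and with edgeR's filterByExpr filter. The same held without the libraries high in neutrophil markers, an alternative chosen after seeing the data. In this order those fits called 863 of 10923, 659 of 17796, 713 of 13604 and 768 of 10863 genes. After immediate repair the fraction had 1 call instead of 0 with DESeq2 and with library size scaling, in each case Il1b. These called 1189 of 8593 and 729 of 10923 genes. In the stump the count ran from 1 to 5 when single libraries were left out, beside 2363 to 3347 genes called. Without a filter Nlrp3 had an edgeR adjusted p of 0.0589 there. Il33 between the fractions at day 14 passed at 2.04 without the animal as a block, and Casp1 by day after immediate repair in macrophages at 0.33 with library size scaling, which lost Nlrp3 there. Library size scaling moved the median over all genes by 0.17 on the log2 scale by day in macrophages after immediate repair, by 0.21 and 0.19 by day in the GFP high fraction after delayed and immediate repair, by 0.24 and 0.36 between the fractions at days 5 and 14, and by -0.11 in the macrophage difference of delay effects. The causes were not tested. The low members of the GFP high fraction varied widely between animals, and Il1a in the stump was too low to test.

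The replicate numbers were not taken to pair the libraries, since not every pair passed: same-numbered libraries deviated together at a correlation over 0.1 in 7 of 8, 6 of 7, 3 of 7, 2 of 7 and 1 of 7 pairs (macrophages at days 5 and 14, GFP high fraction at days 5 and 14, stump). With the replicate block 1 member was called in macrophages at day 5 (Il1a, -0.88, edgeR adjusted p = 0.0313), beside 12 of 8349 genes. In the stump 1 member was called instead of 5, beside 2189 of 12137 genes, with edgeR adjusted p-values of 0.0567 to 0.0825 for the other 4. By day after delayed repair the GFP high fraction gained Il1r2 (-1.01, edgeR adjusted p = 0.0263) and lost Il1rn (edgeR adjusted p = 0.123), beside 740 of 10923 genes called. Among uncalled values the replicate block reversed Il1rn in macrophages at day 14 (0.029) and Il33 by day after immediate repair in macrophages (0.68). In the GFP high fraction it reversed Il1a (-0.26), Il1rn (-0.020) and Il1r1 (0.67) at day 5, Il1a (-2.36), Il18 (-0.39), Il1r2 (-0.085) and Casp1 (0.025) at day 14, Il33 (0.89) and Nlrp3 (0.18) by day after immediate repair, and Il1a (-0.61), Il18 (0.10) and Il1r2 (-0.22) in the difference of delay effects.

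All other reversals were likewise of values that passed in neither fit. DESeq2 put Nlrp3 at 0.0018 (delay, GFP high fraction, day 14) and Il33 at 0.0049 (by day after immediate repair), filterByExpr put them at 0.0021 and 0.010, and no filter put Nlrp3 at 0.0037. Library size scaling gave 0.078 for Il18 (delay, macrophages, day 5), 0.15 for Il1b (between fractions, day 5) and, in the GFP high fraction, 0.045 for Il1r1 by day after delayed repair, 0.29 for Il33 by day after immediate repair, and -0.0083 for Il1a and -0.019 for Il1r2 in the difference of delay effects. limma-voom gave 0.050 for Il18 in macrophages at day 5, and in the GFP high fraction 0.79 for Il1r1 and -0.11 for Il1r2 at day 5 and -1.09 for Il1a, -0.70 for Il33, 0.030 for Il1rn and 0.048 for Casp1 at day 14. With the macrophage marker score as a covariate that fraction had -1.25 for Il1a, -1.16 for Il18, -0.20 for Il1rn, -0.15 for Il1r2 and -0.17 for Nlrp3 at day 5, and -0.78 for Il1a, -0.23 for Il18, -0.12 for Il1r2 and 0.0034 for Casp1 at day 14. With sex as a covariate it had -0.52 for Il18 at day 5, -0.025 for Il1r1 by day after immediate repair and 0.36 for Il18 in the difference of delay effects, and Il33 in macrophages by day after immediate repair was at 0.12. Without the libraries high in neutrophil markers it had -0.053 for Il18 at day 14, 0.24 for Il33 and -0.20 for Il1r1 by day after immediate repair, and -0.15 for Il1a, 0.0012 for Il1r1 and -0.00081 for Il1r2 in the difference of delay effects.

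When single libraries were left out of the delay comparisons, 14 uncalled values changed sign. Their ranges in macrophages were -0.12 to 0.057 for Il18 and -0.014 to 0.22 for Il1rap at day 5, and -0.14 to 0.16 for Il1r1, -0.18 to 0.12 for Il1rn and -0.30 to 0.33 for Il33 at day 14. In the GFP high fraction they were -0.052 to 0.94 for Il1a, -0.78 to 0.13 for Il1r1, -0.12 to 0.24 for Il1r2 and -0.10 to 0.32 for Il1rn at day 5, and -0.21 to 0.017 for Casp1, -0.20 to 0.39 for Il18, -0.67 to 0.66 for Il1a, -0.10 to 0.24 for Il1r2 and -0.45 to 0.20 for Nlrp3 at day 14.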
